A study of Arabidopsis thaliana with 48 samples.

Results

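The miR172 guides of Arabidopsis thaliana are the 4 annotated mature miRNAs miR172a, miR172b-3p, miR172c and miR172d-3p, which were taken by name from the 428 miRNAs listed in the tables of 21 nt reads. Small RNAs were sequenced from closed flower buds of soil-grown, untreated plants kept in long days. The genotypes were the mutants atprmt5-2 and atprmt5-6 and Col-0 wild type (WT). Each gave 2 libraries of small RNA from AGO1 immunoprecipitates (AGO1-IP) and 2 of total small RNA, biological duplicates per the design text, for 12 libraries in all. The design asked how mutation of PRMT5, an enzyme that places symmetric dimethyl marks on arginines, affects small RNA accumulation and the loading of small RNA into AGO1, the main miRNA effector of the plant. The molecular lesions of the alleles are not given in the labels, the tables hold miRNAs only, and PRMT5 expression was therefore not checked. Both alleles were set against the same WT libraries, so their comparisons are not independent.

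miR172 guides repress APETALA2 (AP2) and its relatives TOE1, TOE2, TOE3, SCHLAFMÜTZE (SMZ) and SCHNARCHZAPFEN (SNZ). In flowers the repression of AP2 limits its activity to the outer whorls, and in the shoot the repression of the relatives releases flowering. miR172 accumulates as plants age, opposite to miR156, and its action on AP2 is largely at translation although its targets can also be cleaved.

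The 4 names hold only 2 sequences, shown here because the miR172 values below are given per sequence unless a single copy is named. Capitals mark the seed, bases 2 to 8 from the 5′ end. The letters and positions are from the RefSeq annotation of TAIR10.1, on which all 4 names were found.

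miR172a and miR172b-3p: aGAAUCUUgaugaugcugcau
miR172c and miR172d-3p: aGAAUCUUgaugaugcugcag
miR172e-3p: gGAAUCUUgaugaugcugcau
miR172d-5p: gCAACAUCuucaagauucaga

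miR172a lies at chr2:11942918-11942938 on the minus strand, in MIR172a (AT2G28056), and miR172b-3p at chr5:1188211-1188231 on the minus strand, in MIR172b (AT5G04275). miR172c lies at chr3:3599791-3599811 on the minus strand, in MIR172c (AT3G11435), and miR172d-3p at chr3:20587991-20588011 on the plus strand, in MIR172d (AT3G55512). Each lies in a noncoding miRNA precursor. Counted from the 5′ end, miR172a differs from miR172c by U21G and from miR172e-3p by A1G. The 5 guides of the family share the seed, which none of the other miRNAs had among the 427 with a sequence in the annotation. miR172d-5p is the passenger strand of MIR172d. The summed reads of each identical pair are written miR172a/b-3p and miR172c/d-3p.

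The base that separates the pairs faces different bases in the 6 target genes. The best-paired site in each gene is shown as DNA of the coding strand, with a capital on the base opposite position 21 of the guide.

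AP2: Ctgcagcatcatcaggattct
TOE1: Cagcagcatcatcaggattct
TOE2: Atgcagcatcatcaggattct
TOE3: Tggcagcatcatcaggattct
SMZ: Ttgcagcatcatcaggattcc
SNZ: Ttgtagcatcatcaggattcc

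The AP2 site (AT4G36920) is at chr4:17403019-17403039 on the plus strand, the TOE1 site (AT2G28550, named RAP2.7 in RefSeq) at chr2:12226233-12226253 on the minus strand, and the TOE2 site (AT5G60120) at chr5:24210889-24210909 on the plus strand. The TOE3 site (AT5G67180) is at chr5:26802175-26802195, the SMZ site (AT3G54990) at chr3:20373774-20373794 and the SNZ site (AT2G39250) at chr2:16389066-16389086, all on the minus strand. All 6 lie in coding sequence of at least 1 annotated transcript. At position 21, miR172c/d-3p forms a Watson-Crick pair with AP2 and TOE1, a G:U pair with TOE3, SMZ and SNZ, and a mismatch with TOE2. miR172a/b-3p pairs there with TOE2 only. These pairings describe the letters, and no target RNA was measured.

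Levels are in RPM, reads per 1000000 reads of 21 nt in the library. These reads numbered 3750509 to 8166912 per library in AGO1-IP and 571191 to 1397552 in total small RNA. Annotated miRNAs took 70.5% to 74.8% of them in AGO1-IP and 23.0% to 32.9% in total. The guide of AGO7 is 1 sequence under the names miR390a-5p and miR390b-5p. The name miR390a-5p alone had 134 to 211 RPM in AGO1-IP and 754 to 1971 RPM in total. Both names together averaged 3340 RPM in WT total. The passenger strand miR168a-3p had 5.14 to 18.2 RPM in AGO1-IP and 386 to 972 RPM in total. Both pollen miRNAs of the check, miR845a and miR845b, were read in every library, as buds hold stamens. In such mixed tissue, fewer cells of a type and less RNA per cell cannot be told apart.

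miR172 guides were of middling abundance in buds. miR172a/b-3p ranked 47 to 56 among the sequences with reads in an AGO1-IP library and 51 to 67 in a total library, and miR172c/d-3p ranked 42 to 50 in AGO1-IP and 54 to 69 in total, where each library listed 179 to 200 sequences in AGO1-IP and 160 to 191 in total. The guides rested on 3540 reads over the 12 libraries, 1482 of miR172a/b-3p and 2058 of miR172c/d-3p. Single total libraries held 21 to 59 reads of a sequence, so their values carry wide counting intervals. In WT total replicate 1, 27 reads of miR172a/b-3p gave 47.3 RPM with an exact 95% Poisson interval of 31.2 to 68.8 RPM.

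In total small RNA, miR172a/b-3p had 29.3 and 29.0 RPM in atprmt5-2, 27.2 and 17.1 RPM in atprmt5-6, and 47.3 and 44.8 RPM in WT. Every mutant library was below both WT libraries. miR172c/d-3p had 35.6 and 26.3 RPM in atprmt5-2, 27.2 and 16.3 RPM in atprmt5-6, and 56.0 and 41.0 RPM in WT. Here too all 4 mutant libraries were below both WT libraries, and atprmt5-6 replicate 2 was the lowest library for both sequences. The share of all sequences with such a separation is not given here. Their median log2 difference from WT was also below 0, at -0.52 in atprmt5-2 and -0.73 in atprmt5-6.

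In AGO1-IP the genotypes were closer. miR172a/b-3p had 30.1 and 40.7 RPM in atprmt5-2, 30.4 and 25.1 RPM in atprmt5-6, and 31.5 and 33.8 RPM in WT. The atprmt5-2 libraries lay on either side of WT and both atprmt5-6 libraries lay below it. miR172c/d-3p had 50.1 and 49.6 RPM in atprmt5-2, 41.6 and 35.7 RPM in atprmt5-6, and 53.3 and 51.1 RPM in WT. For this sequence both atprmt5-6 libraries were the lowest. The share of all sequences with such positions is not given here. The median log2 difference of all tested sequences from WT was -0.02 in atprmt5-2 and -0.21 in atprmt5-6.

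**Figure D1:**
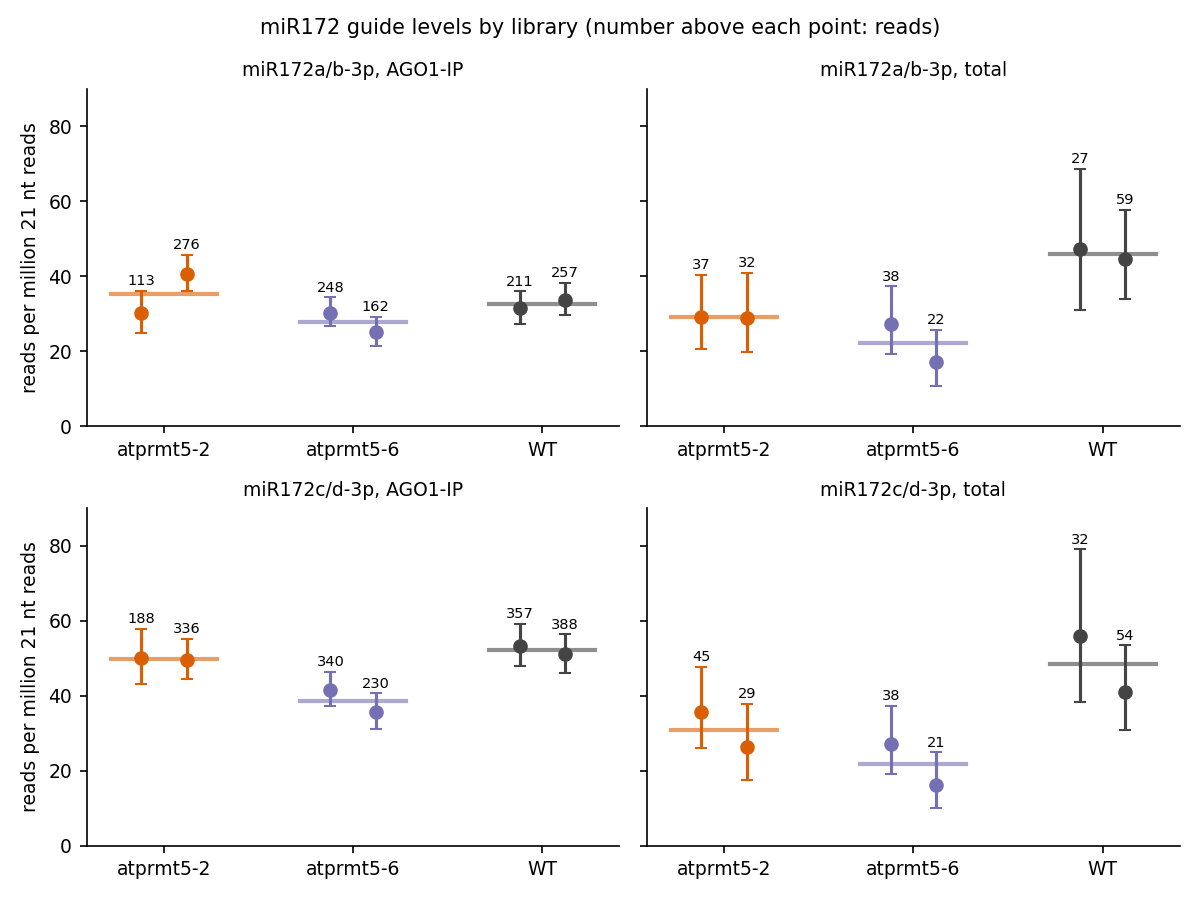
Level of each miR172 sequence in each library, in RPM of 21 nt reads, for atprmt5-2, atprmt5-6 and WT in AGO1-IP (left) and total small RNA (right). Points are libraries with exact 95% Poisson intervals and their read number above, and bars are group means. In total small RNA all 4 mutant points lie below both WT points, with 21 to 59 reads each. The median of all tested sequences was also lower in both mutants there.

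Ordered by group mean, miR172a/b-3p was highest in WT total small RNA (46.0 ± 1.77 RPM, SD, n = 2), followed by atprmt5-2 AGO1-IP (35.4 ± 7.50 RPM), WT AGO1-IP (32.7 ± 1.64 RPM), atprmt5-2 total (29.2 ± 0.195 RPM), atprmt5-6 AGO1-IP (27.7 ± 3.71 RPM) and atprmt5-6 total (22.1 ± 7.17 RPM). The libraries of neighbouring groups overlapped at 3 of these steps, those from atprmt5-2 AGO1-IP to WT AGO1-IP and the last 2. miR172c/d-3p was highest in WT AGO1-IP (52.2 ± 1.58 RPM), followed by atprmt5-2 AGO1-IP (49.9 ± 0.379 RPM), WT total (48.5 ± 10.6 RPM), atprmt5-6 AGO1-IP (38.7 ± 4.22 RPM), atprmt5-2 total (31.0 ± 6.60 RPM) and atprmt5-6 total (21.7 ± 7.72 RPM). Its neighbours overlapped at 3 steps, from atprmt5-2 AGO1-IP through WT total to atprmt5-6 AGO1-IP and at the last. The order holds for RPM of all 21 nt reads, and the place of AGO1-IP against total depends on that scale. Per 1000000 miRNA reads, miR172c/d-3p had 71.2 and 68.5 in WT AGO1-IP and 222 and 153 in WT total.

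The question of accumulation was put to limma on log2(RPM + 1), with 98 sequences tested together and Benjamini-Hochberg adjustment over all of them, calls being made at an adjusted p under 0.05. Both miR172 sequences were called lower in atprmt5-6 total small RNA than in WT. miR172a/b-3p fell by 1.06 on the log2 scale (SE 0.30, limma adjusted p = 0.0265), to 0.480 of the WT level on the log2(RPM + 1) scale, and miR172c/d-3p fell by 1.15 (SE 0.32, limma adjusted p = 0.0261), to 0.451 of it. In this comparison the call was lower for 30.6% of the tested sequences and higher for 4.08%, and the median of all was -0.73. Set against that median, miR172a/b-3p stood at -0.33 and miR172c/d-3p at -0.42, with 22 and 17 of the 98 sequences lower still.

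The 2 calls rested on the scaling and on single libraries. With edgeR and TMM scaling, the log2 difference was -0.29 for miR172a/b-3p and -0.37 for miR172c/d-3p, and neither was called (edgeR adjusted p = 0.591 and 0.434). Without atprmt5-6 total replicate 2 they were -0.74 and -0.80, not called, and without WT total replicate 1 they were -1.02 and -0.93, not called. Without WT total replicate 2, miR172a/b-3p was at -1.10, not called. WT total replicate 1 was the shallowest library, and leaving it out also brought the sequences called lower in atprmt5-6 total to 6, against 30 with it. With the authors' scaling kept, edgeR's test on the recovered reads called both sequences lower, among 23 called lower and 4 higher.

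In atprmt5-2 total small RNA the differences from WT were -0.64 for miR172a/b-3p (SE 0.30, limma adjusted p = 0.143) and -0.63 for miR172c/d-3p (SE 0.32, limma adjusted p = 0.160). Neither was called, while 21.4% of sequences were called lower and 4.08% higher, and the median of all was -0.52. The direct comparison of the alleles in total small RNA, atprmt5-6 minus atprmt5-2, gave -0.42 and -0.52, not called either (limma adjusted p = 0.955 for both), in a comparison with 1.02% of sequences called higher and 0.0% lower. A difference between the alleles was thus not detected with 2 libraries a group.

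A pollen miRNA was also lower in total small RNA of both mutants. miR845a had 37.2 and 38.1 RPM in atprmt5-2 total, 40.8 and 30.2 RPM in atprmt5-6 total, and 73.5 and 78.1 RPM in WT total. It was called lower in atprmt5-2, at -0.99, and in atprmt5-6, at -1.09 (SE 0.24 each, limma adjusted p = 0.0205 and 0.0110). The other marker, miR845b, was at -0.51 and -0.76 and was not called (limma adjusted p = 0.334 and 0.130). Thus 1 of the 2 markers was called lower in each allele, beside 21.4% of all sequences in atprmt5-2 and 30.6% in atprmt5-6. Total libraries held only 3 to 10 reads of miR845b, so its missing call says little. Their summed level in total small RNA was 41.7 to 42.0 RPM in atprmt5-2, 33.3 to 44.4 RPM in atprmt5-6 and 78.8 to 85.7 RPM in WT. In AGO1-IP it was 49.9 to 56.8 RPM in atprmt5-2, 58.4 to 66.1 RPM in atprmt5-6 and 91.2 to 94.2 RPM in WT. There miR845a was at -0.81 in atprmt5-2 and -0.54 in atprmt5-6, and miR845b at -0.61 and -0.72. Neither marker was called in AGO1-IP (limma adjusted p of 0.0761 or more). The part of these differences in the miR172 values was not tested.

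In AGO1-IP no miR172 sequence was called. The differences from WT were 0.10 (SE 0.30) and -0.06 (SE 0.32) in atprmt5-2 and -0.23 (SE 0.30) and -0.43 (SE 0.32) in atprmt5-6, for miR172a/b-3p and miR172c/d-3p in that order, with limma adjusted p of 0.625 or more and unadjusted p of 0.206 or more, and edgeR and DESeq2 called neither. Calls were few among all sequences, in atprmt5-2 5.1% higher with 3.06% lower, and in atprmt5-6 3.06% higher with 1.02% lower. With the replicate number as a block, which pairs the AGO1-IP libraries, the calls were 7 higher and 8 lower in atprmt5-2, against 5 and 3 without the block, and 6 higher and 4 lower in atprmt5-6, against 3 and 1, with neither miR172 sequence among them. The AGO1-IP libraries held 113 to 388 reads of each sequence, more than any total library.

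**Figure D2:**
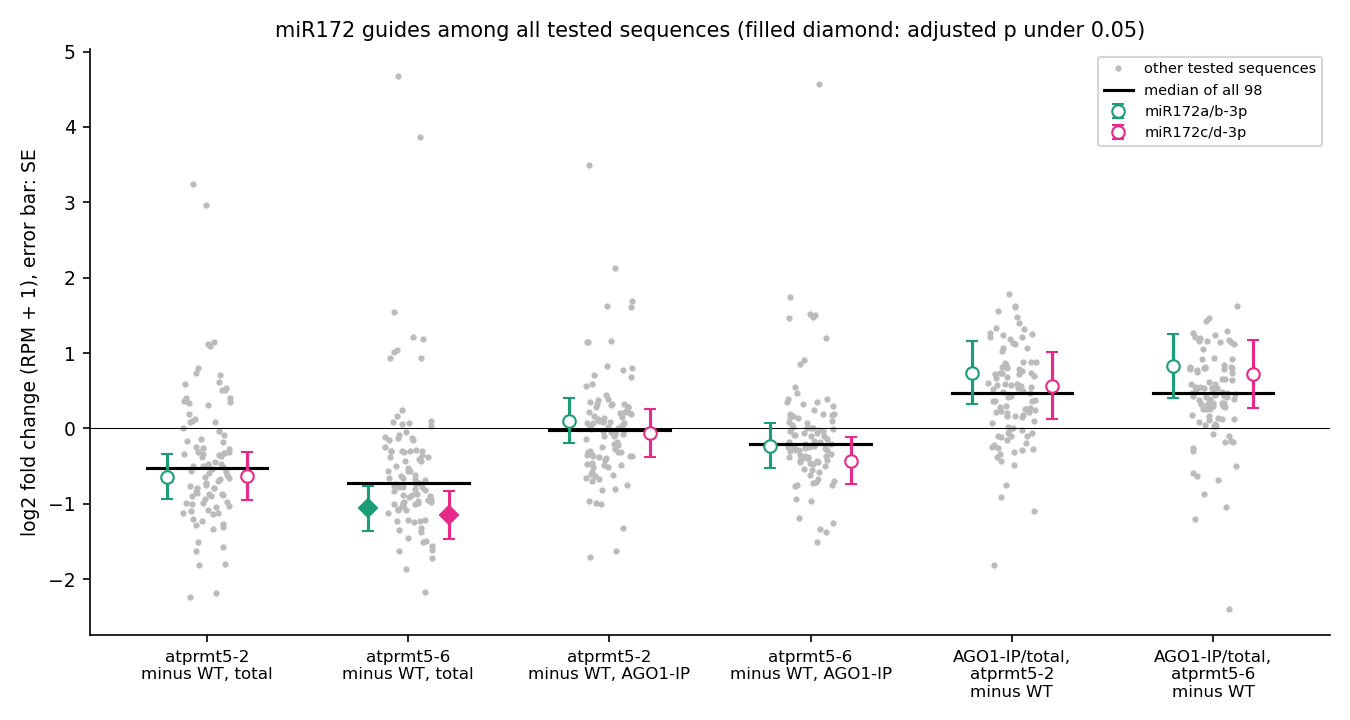
Log2 fold change, on the log2(RPM + 1) scale, of each miR172 sequence (coloured, with SE) and of the other tested sequences (grey) in 6 comparisons, with the median of all 98 as a black bar; the last 2 compare AGO1-IP over total in a mutant with that in WT. Both sequences are called (filled diamonds) only in atprmt5-6 total small RNA, where the median of all sequences is also below 0 at -0.73.

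AGO1-bound level was set against total level within each genotype. For miR172a/b-3p the log2 of AGO1-IP over total was 0.26 in atprmt5-2, 0.34 in atprmt5-6 and -0.48 in WT, each with SE 0.30 and none called. For miR172c/d-3p it was 0.69 in atprmt5-2 (SE 0.32, limma adjusted p = 0.0912), 0.84 in atprmt5-6 (SE 0.32, limma adjusted p = 0.0414) and 0.12 in WT (SE 0.32, limma adjusted p = 0.766). Only the atprmt5-6 value was called higher, in a comparison where 38.8% of sequences were called higher, 23.5% lower, and the median was 0.66. The call was lost without atprmt5-6 total replicate 2 (0.49), AGO1-IP replicate 1 (0.73) or AGO1-IP replicate 3 (0.95), and the sign of these differences depended on the scaling. Scaled to miRNA reads, all 6 were negative, from -1.995 to -0.53. On that scale miR172a/b-3p was called lower in every genotype and miR172c/d-3p in WT. Of the 98 sequences, 66 were called lower in WT and 41 in each mutant.

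The loading difference, a mutant's AGO1-IP over total minus that of WT, was 0.74 (SE 0.42) for miR172a/b-3p and 0.57 (SE 0.45) for miR172c/d-3p in atprmt5-2, and 0.83 (SE 0.42) and 0.72 (SE 0.45) in atprmt5-6. None was called (limma adjusted p = 0.403, 0.561, 0.437 and 0.483). In atprmt5-2, 0.0% of sequences were called in either direction by limma, edgeR or DESeq2, with 14 at an unadjusted p under 0.05 by limma. In atprmt5-6 0.0% were called higher and 1.02% lower. The medians of all sequences were 0.47 in atprmt5-2 and 0.48 in atprmt5-6, so the miR172 values lay up to 0.35 above the median.

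The balance of the 2 miR172 sequences does not depend on library scaling. miR172c/d-3p made up 62.5% and 54.9% of miR172 guide reads in atprmt5-2 AGO1-IP, 57.8% and 58.7% in atprmt5-6 AGO1-IP, and 62.9% and 60.2% in WT AGO1-IP. In total small RNA it made up 54.9% and 47.5% in atprmt5-2, 50% and 48.8% in atprmt5-6, and 54.2% and 47.8% in WT. Every AGO1-IP library was above every total library, by a margin that was narrow between the lowest AGO1-IP library, at 336 of 612 reads, and the highest total library, at 45 of 82 reads.

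The share averaged 59.5% ± 3.00 in AGO1-IP and 50.5% ± 3.23 in total (SD, n = 6 each), a difference of 8.93 percentage points. The exact two-sided permutation test gave p = 0.00216, the smallest it can give, or 0.00649 adjusted over the 3 tests of this share. The difference was 7.47 points within atprmt5-2, 8.83 points within atprmt5-6 and 10.5 points within WT. The test treats libraries as independent, although per the design text the total RNA came from the inputs of the immunoprecipitations. No paired test of the share was run, so the p-values above do not allow for that origin. The exact 95% binomial interval of a single total library was wide, 33.3% to 64.5% for the 43 guide reads of atprmt5-6 replicate 2. The share rests on the last base of the read alone, and no source used here gives the mismatches allowed in mapping.

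No difference in this balance between mutants and WT was detectable. In AGO1-IP the share averaged 58.5% ± 3.11 in the mutants (SD, n = 4) and 61.5% ± 1.91 in WT (SD, n = 2), a difference of -3.04 points (exact permutation p = 0.267). In total small RNA it averaged 50.3% ± 3.20 in the mutants (SD, n = 4) and 51.0% ± 4.56 in WT (SD, n = 2), a difference of -0.70 points (exact permutation p = 1.0). With 4 libraries against 2 the smallest p is 0.133, so this design cannot reach 0.05.

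**Figure D3:**
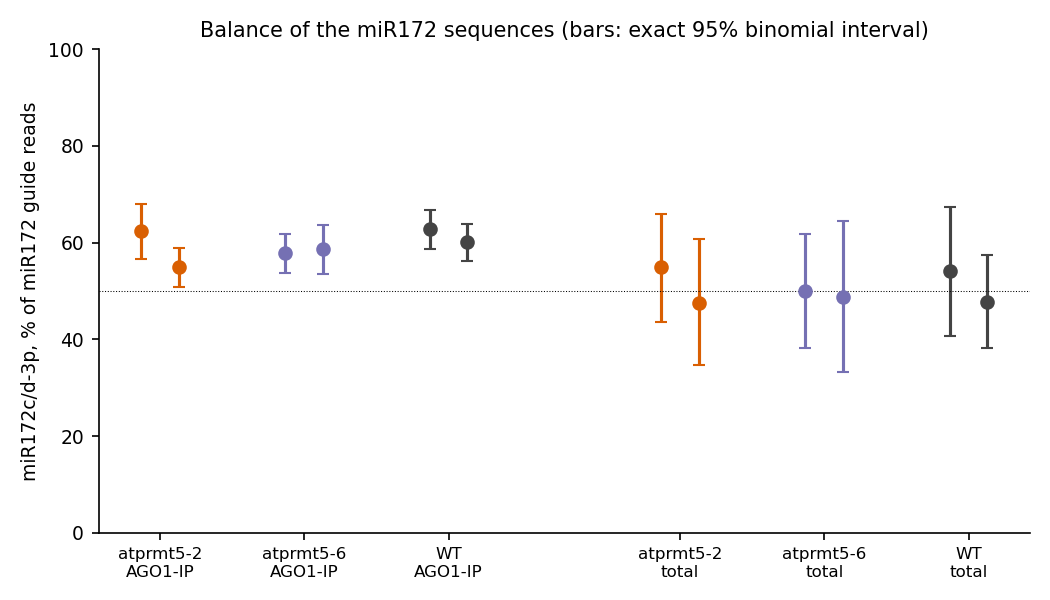
Share of miR172c/d-3p among all miR172 guide reads in each library, in percent, by genotype for AGO1-IP (left) and total small RNA (right), with exact 95% binomial intervals. The 6 AGO1-IP libraries lie between 54.9% and 62.9% and the 6 total libraries between 47.5% and 54.9%; the dotted line marks equal shares.

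The single copies add nothing to these values, because reads of identical copies were spread evenly over them. miR172a held 49.9% of miR172a/b-3p reads, 739 of 1482, and miR172c held 51.1% of miR172c/d-3p reads, 1051 of 2058. The tables cannot tell which locus produced a guide. Fitted apart, miR172b-3p and miR172d-3p were called lower in atprmt5-6 total small RNA (limma adjusted p = 0.0257 and 0.0167), whereas miR172a and miR172c were not (limma adjusted p = 0.0511 and 0.0645). The copies are 1 sequence, so these calls do not separate the loci.

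Of the relatives, miR172e-3p, which begins with G, was close to absent. It had 14 reads in 5 of 6 AGO1-IP libraries, at most 1.03 RPM, and 4 reads in 3 of 6 total libraries, at most 1.52 RPM. The passenger strand miR172d-5p had 1 to 2 reads in each AGO1-IP library and up to 9 in a total library. Among the reads of miR172d-5p and miR172c/d-3p together, the passenger made up 0.487% in AGO1-IP (9 of 1848 reads, exact 95% interval 0.223% to 0.922%) and 7.98% in total (19 of 238 reads, 4.87% to 12.2%). Since 9 of the 19 came from atprmt5-2 total replicate 1, the share in total was 5.43% without it (10 of 184 reads, 2.64% to 9.77%). The passenger was thus the rarer strand in both fractions, and its pooled share was lower in AGO1-IP than in total beyond these counting intervals. The intervals do not cover the spread between libraries. In atprmt5-6 total replicate 2 the passenger had 0 reads beside 21 guide reads. The guide reads counted here include those of MIR172c, whose passenger strand is not listed.

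miR172b-5p and miR172e-5p were listed at 0 in all 12 libraries. Both are annotated at 20 nt, and the tables list hardly any miRNA at a read length above its annotated one, 1 of 316 at 21 nt, so their 0 is no measure of them. For the same reason the 0 reads of the guides at 22 nt, in 12 libraries, do not show that longer forms were absent.

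miR172 guides begin with A, whereas AGO1 is known to prefer a 5′ U. Of the 98 tested sequences 16 begin with A, and their median log2 of AGO1-IP over total was -1.46 in atprmt5-2, -1.74 in atprmt5-6 and -2.19 in WT. For the 66 that begin with U it was 0.88 in atprmt5-2, 0.90 in atprmt5-6 and 0.45 in WT. In WT, 1 of the 16 was called higher and 8 lower, against 18.4% of all sequences called higher and 23.5% lower. The miR172 sequences, at -0.48 and 0.12, were among the 7 not called. Others of the 7 were miR408-3p, a guide of copper protein transcripts, at 0.63 and its passenger miR408-5p at 0.49. The rest of the 7 were miR829-3p.1 at 0.68, miR840-5p at -0.24 and miR841a-3p at -0.92. The sequence called higher was miR5637, at 1.21. Among those called lower were miR390a-5p/390b-5p at -3.65 and the passenger strand miR171b-5p at -3.73. A guide and a passenger strand are mixed in this grouping by first base, so it describes the sequences listed and no rule of loading. The signs depend on the scaling. Scaled to miRNA reads, the median of the 66 that begin with U was negative too, at -0.47 in each mutant and -1.07 in WT.

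The other guides of age and flowering in the tables were 17 names in 9 sequences, of which 3 passed the filter on low values. All 10 names of miR156, the guide of SPL transcripts that acts upstream of miR172, are annotated at 20 nt and could not be counted at 21 nt. In atprmt5-2 total small RNA 1 of the 3 was called lower and none higher, and their median was -0.61 beside -0.52 for all sequences, of which 21.4% were called lower. In atprmt5-6 total small RNA 2 were called lower and none higher, and their median was -0.89 beside -0.73, with 30.6% of all sequences called lower. Under edgeR with TMM 0 of the 3 were called in total small RNA. Lower calls among all 98 sequences then numbered only 3 for atprmt5-2 and 2 for atprmt5-6, beside 6 and 5 higher. With so few calls, 0 of 3 says little. miR824-5p, which targets the flowering repressor AGL16, fell, at -0.90 in atprmt5-2 (SE 0.24, limma adjusted p = 0.0272) and -1.33 in atprmt5-6 (SE 0.24, limma adjusted p = 0.00536). miR390a-5p/390b-5p, which triggers the tasiRNAs of auxin response factors, fell in atprmt5-6, at -0.89 (limma adjusted p = 0.0282). The shared sequence of miR157a-5p, miR157b-5p and miR157c-5p, a relative of miR156, was not called, at -0.47 in atprmt5-2 and -0.66 in atprmt5-6. In AGO1-IP limma called 0 of the 3 in either allele, with 1 at an unadjusted p under 0.05 in atprmt5-2 and 0 in atprmt5-6. Of all 98 sequences, 19 in atprmt5-2 and 18 in atprmt5-6 were under that unadjusted p. In atprmt5-2, 1 of the 3 was called higher by edgeR with TMM, beside 7 of 98 sequences, and by DESeq2, beside 5 of 90.

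The guides of floral organ regulators were 25 names in 13 sequences, 11 of them tested. In atprmt5-2 total small RNA the calls were 1 higher and 2 lower and the list's median was -0.34, where 4.08% of all sequences were called higher and 21.4% lower around a median of -0.52. In atprmt5-6 total small RNA they were 1 higher and 3 lower and the median was -0.44, where 4.08% of all were called higher and 30.6% lower around a median of -0.73. miR165a-3p/165b, a guide of class III HD-ZIP transcripts, rose by 0.81 in atprmt5-2 (limma adjusted p = 0.0381) and by 1.04 in atprmt5-6 (limma adjusted p = 0.0130). miR159c, of the family that targets GAMYB-like transcripts, fell, at -1.28 in atprmt5-2 and -1.49 in atprmt5-6 (limma adjusted p = 0.0149 and 0.00602). miR319c, of the family that targets TCP transcripts, fell, at -1.14 in atprmt5-2 and -1.35 in atprmt5-6 (limma adjusted p = 0.0149 and 0.00536), and miR319a/319b fell in atprmt5-6, at -0.78 (limma adjusted p = 0.0282). Under edgeR with TMM 2 of the 11 were called higher and 0 lower in total small RNA of either allele. Among all 98 sequences, higher calls under that setting numbered 6 for atprmt5-2 and 5 for atprmt5-6. Lower calls numbered 3 and 2. In AGO1-IP limma called 0 of the 11 in either allele, with 2 at an unadjusted p under 0.05 in each. Of all 98 sequences, 19 in atprmt5-2 and 18 in atprmt5-6 were under that unadjusted p. DESeq2 called 1 of the 11 lower in atprmt5-2, beside 5 of 90 sequences.

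Across the 12 libraries, after the mean of each fraction was removed from log2(RPM + 1), the miR172 sequences had r = 0.92 with each other. The 5 other sequences most like them, by the mean of their r with both, were miR859 (0.87), miR171b-5p (0.86), miR780.2 (0.86), miR158a-5p (0.85) and miR5017-5p (0.82). All points share their library, depth and genotype, so these are descriptions with no test. Genotype differences were kept in r, so sequences chosen this way are low where miR172 is low. The log2 differences of atprmt5-6 from WT in total small RNA, given as a description, were miR859 at -1.24, miR171b-5p at -1.87, miR780.2 at -0.97, miR158a-5p at -1.01 and miR5017-5p at -2.17. Their levels in WT total small RNA ran from 7.67 RPM (miR859) to 8033 RPM (miR780.2).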

How the data were processed

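The authors deposited RPM values of 428 annotated miRNAs, in 48 tables, 1 for each of 12 libraries and each read length from 21 to 24 nt. Per the submitters' processing notes, Trimmomatic 0.36, Bowtie2, SAMtools 1.9 and the TAIR10 genome were used; their roles, the mismatches allowed and the treatment of reads with several origins were not given. The deposited 21 nt RPM of 100.0% of listed miRNAs were whole multiples of 1 read, within 0.01 reads, which gave read numbers. RPM refer to reads of that length, and missing values were taken as 0. Commas in miRNA names were read as dots.

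Identical mature sequences, from the RefSeq annotation of TAIR10.1 (427 of 428 names matched), were summed. Sequences with a mean of at least 5 RPM over the 12 libraries (98) were tested with limma 3.58.1 (R 4.3.3) on log2(RPM + 1), with 6 groups (6 residual degrees of freedom), a trend in intensity, no block and Benjamini-Hochberg adjustment; both miR172 sequences passed. The log scale understates changes of low sequences, and pooling assumes that AGO1-IP and total libraries vary alike. The code was tested on simulated data. edgeR 4.0.16 and DESeq2 1.42.0 on recovered reads were alternatives. Shares were compared by exact permutation over libraries, and intervals at 95% (exact binomial or Poisson) cover counting error only; p-values measure only the spread between these libraries. Target sites were searched in the 6 genes' transcripts.

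Library numbers are those of the labels, which are 1 and 3 for AGO1-IP but 1 and 2 for total. The deposited names number the second total libraries 3, as for AGO1-IP. Whether AGO1-IP and total libraries of 1 number share material is not stated. Deviations from the group means of same-numbered AGO1-IP libraries had r = 0.28 to 0.62 between genotypes, so the numbers were taken to pair them; total libraries had r = -0.11 to 0.62 and were not taken as paired. The members and lists were chosen with earlier results of these data known. The text names every miR172 product, list members that were called or, with none called, the most abundant, the 5 sequences most like the members, and the pull-down and pollen checks; other sequences beginning with A were named after their values were seen.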

Additional observations from a re-analysis of the deposited data

Results flagged for a closer look

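The 23 nt table of WT total replicate 1, which no comparison used, listed miR172a/b-3p at 16.1 RPM and miR172c/d-3p at 19.0 RPM, a signal in data outside the main measurement. That table held the read numbers of the same library's 21 nt table for 195 of its 195 listed miRNAs, and it was left out.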

How the results depend on the processing

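Values are log2 differences of miR172a/b-3p and then miR172c/d-3p unless 1 is named; where no cause is given, the cause was not tested. The fall in atprmt5-6 total small RNA was not called with edgeR and TMM (-0.29, -0.37), DESeq2 (-0.45, -0.51), centring on the median sequence (-0.31, -0.40), miR172a and miR172c alone (-0.87, -0.79) or only the groups compared (-1.06, -1.15, with fewer libraries to estimate the spread). Leaving out 1 library gave -1.38 to -0.74 and -1.50 to -0.80, not called in 3 and 2 of 4 cases. Calls lower in that comparison numbered 2 with TMM against 5 higher, 4 with DESeq2 against 5 higher, 3 with centring against 6 higher, and 42 with miRNA-read scaling against 5 higher, beside 30 and 4. In atprmt5-2 total they numbered 3 with TMM against 6 higher, 2 with DESeq2 against 4, 3 with centring against 6, 32 with miRNA-read scaling against 4, and 3 without WT total replicate 1, beside 21 and 4. The negative direction in total small RNA held for both alleles and sequences in all alternatives run. In atprmt5-2, where neither sequence was called, the differences shrank to as little as -0.011 and -0.00089.

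In atprmt5-2 AGO1-IP the sign of miR172c/d-3p changed with TMM (0.038), DESeq2 (0.048), miRNA-read scaling (0.00038), centring (0.018), miR172c alone (0.092), 21 and 22 nt reads summed (0.046) and both sequences summed (0.0049), and that of miR172a/b-3p with miR172a alone (-0.021) or without 1 library (-0.11 to 0.31).

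AGO1-IP over total for miR172c/d-3p in atprmt5-6 was not called without the filter (0.84), with edgeR on the authors' scaling (0.83), DESeq2 (0.21), miR172c alone (0.69), only the groups compared (0.84), or both sequences summed (0.62), an alternative added after seeing the data. Without 1 library it was 0.49 to 1.19. It changed sign with TMM (-0.0022) and miRNA-read scaling (-0.53). For miR172a/b-3p in atprmt5-6 the value was -0.51 with TMM, -0.29 with DESeq2, -1.04, called lower, with miRNA-read scaling, and 0.85, called higher, with 21 and 22 nt reads summed. In atprmt5-2, miR172a/b-3p was -0.52 with TMM, -0.39 with DESeq2 and -1.09, called lower, with miRNA-read scaling. It was -0.029 as miR172a alone and 0.76, called higher, with 21 and 22 nt reads summed. In the same allele miR172c/d-3p was -0.085 with TMM, -0.66 with miRNA-read scaling and 1.19, called higher, with 21 and 22 nt reads summed. In WT, miR172a/b-3p was -1.995, called lower, with miRNA-read scaling and 0.042 with 21 and 22 nt reads summed. There miR172c/d-3p was -0.12 with TMM, -0.071 with DESeq2 and -1.39, called lower, with miRNA-read scaling. It was -0.094 as miR172d-3p alone, -0.15 with both sequences summed, and -0.10 to 0.34 without 1 library. The 22 nt tables hold 0 member reads, so summing changed only the denominators. The median of sequences beginning with A in WT was -3.79 with miRNA-read scaling, beside -2.19. That of sequences beginning with U in WT was -1.07, beside 0.45.

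With the replicate block within fraction, miR172c/d-3p in atprmt5-2 was called higher in AGO1-IP than in total (0.69, limma adjusted p = 0.0241), calls lower numbered 48 in atprmt5-6 total and 27 in atprmt5-2 total, and no other miR172 call changed. In total small RNA the numbers were not taken to pair the libraries, whose deviations had r = 0.62 between the alleles but -0.05 and -0.11 with WT. The direct comparison of the alleles there called neither miR172 sequence with the block either. AGO1-IP and total share only the number 1 in the labels; deviations had r = 0.42 in atprmt5-2, 0.77 in atprmt5-6 and 0.17 in WT, and a block across fractions changed no miR172 call.

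The share of miR172c/d-3p in AGO1-IP minus total was 8.26 to 9.85 points without 1 library. The difference between mutants and WT in total was -3.92 to 2.53 points. Depth limits the total libraries most, at 21 to 59 reads of a sequence.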
